A study of Homo sapiens with 12 samples.

Results

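The small RNA libraries of this study were summarised by the authors over known short RNAs and over loci whose names mark them as reconstructed. Reconstructed loci without annotated features are those rebuilt loci that share no base, on their own strand, with an annotated short RNA of the same table. They number 3952 of the 4794 reconstructed loci and of 15590 small RNA features in all. Of the 3952, 584 held at least 1 fragment in any library and 355 held 10 or more over the 6 libraries. The remaining 3368 (85.22%) were listed at 0 in every library, against 140 of the other 842 reconstructed loci (16.63%).

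The samples came from HEK293, an established human embryonic kidney line, carrying an inducible FLAG-tagged DIS3L2 gene (Flp-In T-REx), either the wild-type protein (WT) or its catalytic mutant (mut). All lines also made sh-miRNAs against the cells' own DIS3L2 mRNA, with the introduced gene recoded, and all received 100 ng/ml doxycycline for 3 days. Whether each variant was 1 clone or several is not given in the sources used here. Each variant had 3 small RNA libraries, made from TAP-treated RNA with inserts of 20 to 200 nt, and 3 rRNA-depleted total RNA libraries. Nothing in the labels calls the 3 separate cultures. P-values measure only the spread between libraries, and that spread may be technical.

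DIS3L2 is a cytoplasmic exonuclease that degrades RNA from the 3′ end and prefers RNAs with an added uridine tail. Annotated short RNA catalogues cover miRNAs, snRNAs, snoRNAs, Y RNAs and tRNAs well, so loci outside them can hold longer structural RNAs, unlisted snoRNA copies, short RNAs from the starts of genes, transcripts from the opposite strand of known genes, and pieces of mRNA. TAP removes a cap or triphosphate from the 5′ end, so that such RNAs can enter the library.

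Among the loci with fragments, 129 lay at the annotated start of a RefSeq gene, and the sequence there shows where the loci begin. The sequences below run from 60 bases before the RefSeq start to 10 bases after it, 5′ to 3′ on the gene's strand, from RefSeq GRCh38.p14. Capitals mark the bases inside the deposited locus. H3C2, H1-2 and FTL are the 3 start loci with the highest mean level, and the other 4 were chosen after their values were seen, to show both strands and non-histone genes.
H3C2, chr6:26032090-26032159, minus strand: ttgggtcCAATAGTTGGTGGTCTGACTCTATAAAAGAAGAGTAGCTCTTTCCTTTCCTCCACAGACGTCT
H1-2, chr6:26056461-26056530, minus strand: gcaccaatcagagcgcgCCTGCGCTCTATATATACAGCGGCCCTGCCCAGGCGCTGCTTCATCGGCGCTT
H2BC11, chr6:27132786-27132855, minus strand: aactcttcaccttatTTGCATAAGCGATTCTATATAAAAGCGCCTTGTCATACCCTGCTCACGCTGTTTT
TUBA1B, chr12:49131386-49131455, minus strand: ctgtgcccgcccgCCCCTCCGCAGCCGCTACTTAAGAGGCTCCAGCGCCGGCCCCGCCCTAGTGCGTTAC
H2AC11, chr6:27132983-27133052, plus strand: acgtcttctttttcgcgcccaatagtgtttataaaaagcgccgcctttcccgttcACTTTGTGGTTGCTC
FTL, chr19:48965249-48965318, plus strand: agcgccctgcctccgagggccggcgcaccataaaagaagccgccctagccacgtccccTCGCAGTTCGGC
RPS27, chr1:153990702-153990771, plus strand: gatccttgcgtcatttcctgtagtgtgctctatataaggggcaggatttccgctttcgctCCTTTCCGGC

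On the plus strand the loci began at the annotated start, and on the minus strand they began upstream of it. Among loci whose 5′ end lay within 150 nt of the start, the 5′ end minus the annotated start had a median of -1 nt over 65 plus-strand loci (quartiles -7 and 0) and of -45 nt over 61 minus-strand loci (quartiles -49 and -36). A similar offset was seen at the right-hand edge of loci over annotated RNAs, whichever strand they lay on. Among other reconstructed loci that cover exactly 1 annotated RNA, the right edge lay a median of 56 nt beyond the RNA on the plus strand (n = 382) and 55 nt beyond it on the minus strand (n = 423), while the left edge lay 6 and 9 nt beyond it. The deposited boundaries on the right side were therefore wider than the annotated RNAs by a similar length on both strands; how they were drawn is not given in the sources used here. The upstream bases in capitals for H3C2, H1-2, H2BC11 and TUBA1B are on that side.

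**Figure D1:**
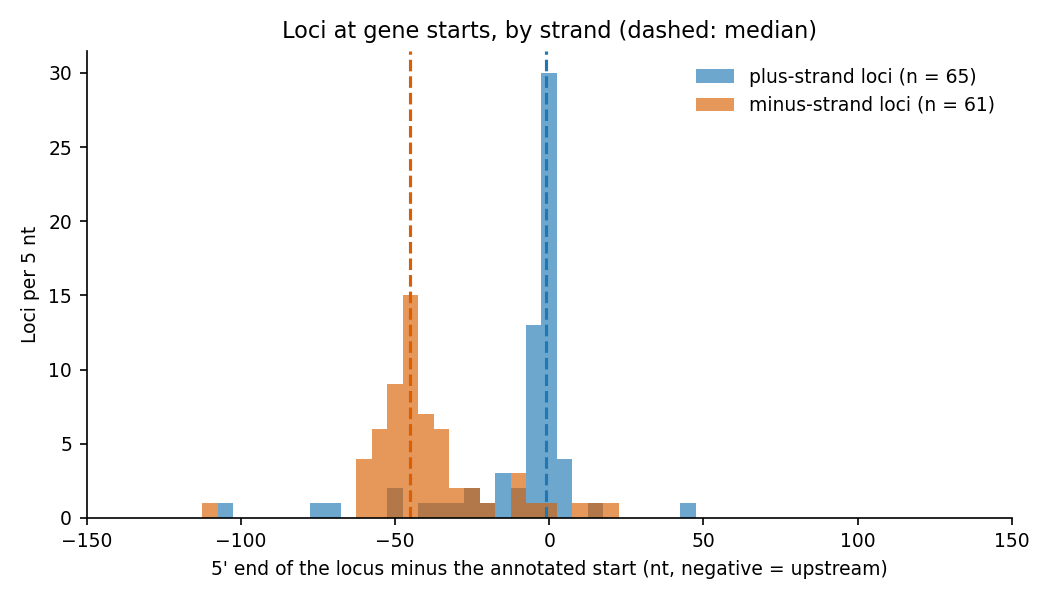
Histogram of the distance in nt from the annotated RefSeq start to the 5′ end of the locus, for loci with fragments at gene starts, in bins of 5 nt. Plus-strand loci (n = 65) centre on -1 nt and minus-strand loci (n = 61) on -45 nt, the dashed medians.

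The TATA box is a promoter element bound by the TATA-binding protein shortly upstream of many strongly regulated genes. The letters TATAAA, searched on the gene's own strand with the first base between -40 and -21 relative to the start, occurred at 19 of the 31 loci at histone gene starts (61.3%) and at 13 of the 98 loci at other gene starts (13.3%). These loci lie at 29 histone genes and 96 other genes, so a few share a start. Over all 35116 RefSeq promoter windows of 300 bases the share was 806 (2.3%). In H3C2, H2BC11 and H2AC11, shown above, the motif began at -32, -28 and -31. The 13 other loci with the motif included those at HSPA1B, which encodes an inducible HSP70 chaperone, and EEF2, the elongation factor that moves the ribosome along. Median GC over the 300 bases was 43.3% at histone starts, 64.0% at other starts with a locus and 58.7% over all windows.

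The 584 loci were grouped by what RefSeq places at them. RefSeq as used here gives a strand for 28865 of 59716 genes and no exons, so exon and intron could not be told apart, and genes without a strand formed a class of their own. A few loci held most of the material. The 5 highest held 51.25% of the FPM (fragments scaled to a common library total) in these loci, the 10 highest 71.08% and the 20 highest 86.74%. Loci at snoRNA genes held 37.9% over 28 loci, loci on long structural RNAs 31.5% over 12, intergenic loci 15.3% over 68, and loci at other short RNA genes 5.09% over 8, nearly all of it at RNY5. The 198 loci inside other genes on the same strand held 4.88%, 49 loci at histone genes 1.10% and 98 loci at other gene starts 0.691%. All 49 loci at histone genes and 98 of the 126 at other gene starts had fragments, against 68 of 1288 intergenic loci.

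**Figure D2:**
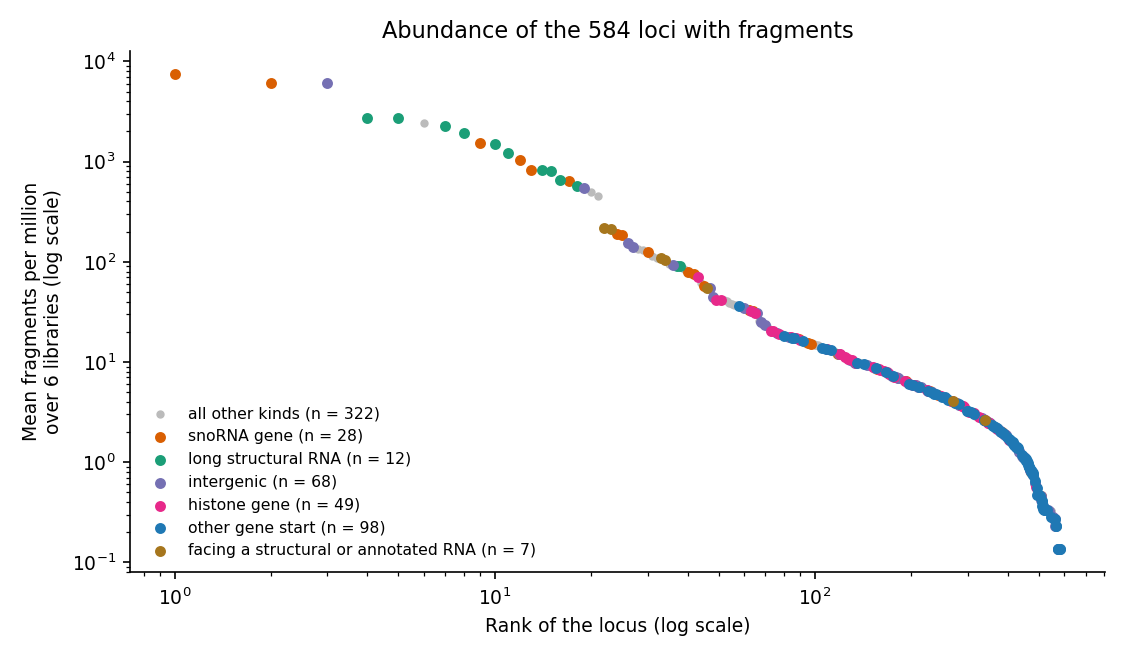
Each point is 1 of the 584 loci with fragments, with its rank on the x axis and its mean FPM over 6 libraries on the y axis, both on log scales, coloured by kind. The 5 loci on the left hold 51.25% of the FPM, with overlapping loci each counted in full, and gene starts and histone loci lie in the middle and lower ranks.

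Length differed between the loci, the annotated RNAs and the other reconstructed loci. Loci with fragments had a median length of 139 nt and reached 3493 nt, and 111 of the 584 were longer than 250 nt. Annotated features had a median of 102 nt, and 8 of the 10796 exceeded 250 nt. The other 842 reconstructed loci were longer still, with a median of 175 nt and a maximum of 10934 nt. Greater length than the annotated RNAs was thus not particular to the loci described here. The 3368 loci listed at 0 had a median of 78 nt, and 59.5% of them were between 76 and 80 nt long. Loci at histone genes had a median of 434 nt, and those on long structural RNAs of 320.5 nt. The longest of the loci described here covered the minus strand of the mitochondrial genome from base 11 to base 3503. In 16 places members overlapped each other, 32 loci in all, so that a fragment could count at more than 1 of them.

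Counts summed over the loci without annotated features came to 4.34%, 4.54% and 6.14% of the library total in mut and 4.66%, 4.81% and 4.78% in WT. This sum counts a fragment at each overlapping locus that holds it. The groups overlapped (difference of means 2569 FPM, exact permutation test, two-sided, p = 1; the smallest p that 3 against 3 libraries allows is 0.1). The third mut library stood above the other 5, and without it the difference was -3092 FPM. It was -262 FPM without the most abundant locus and -2868 FPM without the GAS5 loci. With overlapping loci counted once, the shares were 3.57%, 3.77% and 5.20% in mut and 3.86%, 3.94% and 3.93% in WT. The groups again overlapped, with a difference of means of 2719 FPM. These libraries held between 493314 and 1219718 fragments in all. In bulk RNA, fewer cells that make an RNA and less of it per cell cannot be told apart.

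GAS5 is a non-coding host gene whose introns carry box C/D snoRNAs, the guides for 2′-O-methylation of rRNA, and whose spliced RNA is degraded in the cytoplasm. It carried the most abundant loci here. Its 5 loci on chromosome 1 held 34.8% of all FPM in the loci described. The GAS5 loci over SNORD78 overlap, so fragments there can count more than once in this share and in sums over these loci. The locus chr1:173865614-173866087 (minus strand), over SNORD44 and SNORD78, had 6533, 7157 and 12809 FPM in mut and 5276, 6856 and 5875 FPM in WT. The ranges overlapped, and the third mut library was the highest. The locus chr1:173864128-173864956 (minus strand), over SNORD47, SNORD80 and SNORD81, had 6085, 6793 and 8221 FPM in mut and 5076, 5193 and 5262 FPM in WT. All 3 mut libraries of this locus were above all 3 WT libraries.

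Over the 5 GAS5 loci together, the libraries had 15770, 17101 and 26135 FPM in mut and 13186, 15374 and 14136 FPM in WT. That was 19668 ± 5639 against 14232 ± 1097 FPM (SD, n = 3; exact permutation p = 0.1), with no overlap, and the other mut libraries were also above WT without the third. In the fit over all small RNA features none of the 5 passed. Their log2 fold changes included 0.61 (SE 0.21) over SNORD44 and SNORD78, 0.52 (SE 0.16) over SNORD47, SNORD80 and SNORD81, and 0.18 (SE 0.21) over SNORD74, with edgeR adjusted p of 0.43, 0.31 and 0.83. In total RNA, which favours longer molecules, GAS5 had 154, 151 and 139 CPM (counts scaled to a common library total) in mut, against 114, 111 and 109 in WT. It was higher in mut, 148 ± 8.17 against 111 ± 2.90 CPM (SD, n = 3; log2 fold change 0.43, SE 0.06, edgeR adjusted p = 1.02e-05). That gene count and the snoRNA loci share 1 gene but come from different libraries and length ranges.

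The other 23 loci at snoRNA genes held 3.10% of the FPM. The highest was SNORD119, within SNRPB, a core protein of spliceosomal snRNPs, at 637 FPM, followed by SNORD148 at 192 FPM and SNORD59B at 185 FPM. Summed over the 23, the mut libraries had 1290, 1295 and 1892 FPM and the WT libraries 1535, 1547 and 1526 FPM. Outside GAS5 the groups thus overlapped. SCARNA26A and SCARNA27, small Cajal body RNAs, and TERC, the RNA template of telomerase, were present at 4.94, 9.71 and 3.49 FPM.

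The second group was made of structural RNAs that are longer than most annotated features of the small RNA table, of which 8 of 10796 exceed 250 nt. RN7SL1, RN7SL2 and RN7SL3 (each 299 nt in RefSeq) encode 7SL, the RNA of the signal recognition particle. RN7SK (332 nt) holds the elongation factor P-TEFb inactive, RMRP (270 nt) is the RNA of RNase MRP, and RPPH1 (341 nt) that of RNase P. Inserts were 20 to 200 nt, shorter than these RNAs, and where the fragments begin and end within them cannot be read from the table. The 12 sense loci over the 6 genes had 14031, 13895 and 16095 FPM in mut and 15333, 16314 and 16426 FPM in WT (exact permutation p = 0.2), and the ranges overlapped. These loci overlap in pairs, so the sums count shared fragments more than once.

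RN7SL1 carried 2 nearly identical loci at chr14:49586576-49586969 and chr14:49586574-49586878 (plus strand), counting almost the same fragments. The first had 2622, 2441 and 2420 FPM in mut and 2737, 2822 and 3152 FPM in WT. All mut libraries were below all WT libraries, with a log2 fold change of -0.12 (SE 0.17; adjusted p = 0.85 with edgeR). RN7SK at chr6:52995616-52996003 (plus strand) had 1670, 1885 and 2138 FPM in mut and 1989, 1867 and 1946 FPM in WT, and overlapped. Both loci over RN7SL3 were lower in mut, with log2 fold changes of -0.53 (SE 0.23) and -0.55 (SE 0.23) and an edgeR adjusted p of 0.63 for each. The 3 7SL genes are near-identical copies, so their single values are uncertain. In total RNA RN7SL1 was listed at 0 in all 6 libraries. RN7SL2 was higher in mut (89.3 ± 15.97 against 55.2 ± 8.82 CPM; SD, n = 3; edgeR adjusted p = 3.95e-06) and RN7SL3 did not pass (107 ± 4.54 against 104 ± 6.01 CPM; edgeR adjusted p = 0.57).

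RNY5, a Y RNA bound by the Ro60 protein, lay within chr7:148941400-148941718 (RefSeq as used here gives no strand; the locus is on the plus strand). It had 1902, 1574 and 2863 FPM in mut and 3268, 2295 and 2684 FPM in WT, which overlapped (log2 fold change -0.32, SE 0.21, edgeR adjusted p = 0.70). Loci over pseudogenes were low. The highest of 15 was RN7SKP48, a copy of RN7SK, at 36.8 FPM, and RNY4P5 and RNY4P2, copies of the Y4 RNA gene, had 9.01 and 6.69 FPM. They may share reads with the parent genes.

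Of the 68 intergenic loci, chr7:145997324-145997484 (plus strand, 161 nt) held 6079 of the 7452 FPM. Its libraries had 4104, 5943 and 7157 FPM in mut and 5598, 6365 and 7307 FPM in WT. The groups overlapped, with a log2 fold change of -0.09 (SE 0.19; adjusted p = 0.91 with edgeR). It was the third most abundant locus of all 584, and RefSeq places no gene over it. The next intergenic locus, chr7:149628137-149628277 (plus strand), had 677, 635 and 613 FPM in mut and 514, 412 and 434 FPM in WT. All 3 mut libraries were higher, with a log2 fold change of 0.60 (SE 0.19; adjusted p = 0.32 with edgeR). Likewise chr16:51556364-51556488 (minus strand), chosen after its values were seen, had 152, 152 and 195 FPM in mut and 114, 124 and 116 FPM in WT.

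Loci inside other genes on the same strand were many and mostly low, with a median of 3.60 FPM over 198. The highest lay in DNMT1, the maintenance DNA methyltransferase, at chr19:10180608-10180730 (minus strand), with 358, 343 and 619 FPM in mut and 531, 643 and 485 FPM in WT, overlapping. Loci in SRGAP2C, SRGAP2B and SRGAP2, duplicated copies of a gene for a regulator of neuronal migration, had 131, 95.5 and 84.2 FPM, and reads of such copies may be shared. The loci in DNMT1 and in the SRGAP2 family were chosen after their values were seen. A locus in TUB at chr11:8086087-8086163 (plus strand) had 16.6, 20.5 and 57.6 FPM in mut and 56.2, 60.8 and 37.6 FPM in WT, overlapping only through the third mut library.

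The 49 loci at histone genes had 445, 555 and 598 FPM in mut and 549, 547 and 528 FPM in WT, and overlapped (exact permutation p = 1). The 31 of them at histone gene starts had 322, 382 and 421 FPM in mut and 364, 407 and 369 FPM in WT. Most histone mRNAs of this type carry a stem-loop in place of a poly(A) tail and are made in S phase. The most abundant locus, at H3C2 (chr6:26031593-26032152, minus strand), had 58.0, 62.3 and 85.4 FPM in mut and 75.6, 83.1 and 56.3 FPM in WT. At H1-2, the linker histone locus chr6:26055741-26056513 (minus strand) had 40.1, 60.7 and 33.8 FPM in mut and 21.3, 36.5 and 59.8 FPM in WT. Neither separated the variants, with log2 fold changes of 0.00 (SE 0.24) and 0.34 (SE 0.39).

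In total RNA the same histone genes did differ. Of 37 tested histone genes with a locus, 31 were higher in mut and none lower, with a median log2 fold change of 0.31. Over all genes tested the median was 0.01, and 27.3% were called, 14.1% higher and 13.1% lower. The 31 called higher became 22 without the first WT library and 26 without the third mut library. Over all genes the 2037 called higher became 1327 and 1695 in the same fits. In both of these fits 36 of the 37 had a log2 fold change above 0. H2AC15 rose most among them, from 40.2 ± 1.19 to 196 ± 4.77 CPM (SD, n = 3). H3C13 rose from 271 ± 15.0 to 393 ± 7.48 CPM, and H1-2 from 1907 ± 60.9 to 2153 ± 20.8 CPM. Near-identical histone genes can exchange reads, so values of single copies are uncertain. The total RNA and small RNA changes were not tested against each other.

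The 98 loci at other gene starts had 337, 384 and 465 FPM in mut and 260, 302 and 277 FPM in WT. All 3 mut libraries were above all 3 WT libraries, 395 ± 64.5 against 279 ± 21.3 FPM (SD, n = 3; exact permutation p = 0.1, adjusted over 13 kinds 0.43). Of these means, the locus at FTL alone held 55.9 FPM in mut and 16.4 FPM in WT, and the sum without it was not tested. With the histone loci included, the difference over all loci at gene starts was 110 FPM (exact permutation p = 0.2). It was 28.9 FPM (exact permutation p = 0.8) with a start window of 300 nt and 52.7 FPM without the third mut library. Only 1 of the 98 passed the filter on low counts, the locus at the start of FTL. It passed through its mut libraries, where it was higher, so its tests below are not independent of that filter. FTL encodes the light chain of ferritin, the iron store of the cell, and its mRNA carries an iron-responsive element near the 5′ end. The locus (chr19:48965307-48965422, plus strand) held 39, 59 and 33 fragments in mut and 5, 11 and 10 in WT.

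As FPM the FTL locus had 53.9, 48.4 and 65.5 in mut and 9.69, 22.3 and 17.1 in WT. Every mut library was above every WT library, with a log2 fold change of 1.84 (SE 0.31), the largest of all tested loci. The edgeR adjusted p over all features was 0.061, above the threshold of 0.05. With limma on log2(FPKM + 1), where FPKM is FPM per kb of locus, it was 0.039; limma called 3 of 1148 features (0.261%). FTL in total RNA was at 299 ± 30.4 against 278 ± 15.2 CPM in WT (SD, n = 3; log2 fold change 0.12, SE 0.07, edgeR adjusted p = 0.19), so that the gene count did not pass.

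A further pair of gene starts with larger counts in mut did not reach the filter, so they were not tested in the main model, and both were chosen after their values were seen. TUBA1B, an alpha-tubulin gene, had a locus with 12, 35 and 11 fragments in mut and 1, 2 and 3 in WT (chr12:49131298-49131442, minus strand). POLR2A, the gene of the largest subunit of RNA polymerase II, had a locus with 18, 41 and 8 fragments in mut and 1, 7 and 8 in WT (chr17:7484366-7484521, plus strand). With no filter on low counts, edgeR called both higher in mut, with log2 fold changes of 2.67 (SE 0.54, adjusted p = 0.0004) and 1.5 (SE 0.43, adjusted p = 0.037); that fit called 44 of 2351 features (1.87%). DESeq2 on the same features called neither (adjusted p = 0.22 and 0.996). In total RNA TUBA1B did not pass (2432 ± 191 against 2244 ± 119 CPM, adjusted p = 0.076), and POLR2A was higher in mut (173 ± 11.8 against 155 ± 5.19 CPM, adjusted p = 0.032; SD, n = 3, edgeR). Loci at 7 ribosomal protein gene starts, RPS27 among them, had 60.8, 68.0 and 95.3 FPM in mut and 54.3, 91.2 and 66.6 FPM in WT, overlapping.

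The 37 loci on the opposite strand of a gene, apart from those facing a short or structural RNA, had 218, 208 and 224 FPM in mut and 163, 144 and 143 FPM in WT. All mut libraries were above all WT libraries (217 ± 8.13 against 150 ± 11.1 FPM, SD, n = 3; exact permutation p = 0.1, adjusted over 13 kinds 0.43). The locus opposite TOM1L2 (chr17:17960223-17960398, plus strand) had 49.7, 45.1 and 35.7 FPM in mut and 21.3, 26.4 and 25.6 FPM in WT, with no overlap and a log2 fold change of 0.96 (SE 0.30; adjusted p = 0.32 with edgeR). The locus opposite POLR3E, a subunit of RNA polymerase III (chr16:22298375-22298687, minus strand), had 30.4, 51.7 and 43.7 FPM in mut and 48.5, 10.1 and 29.0 FPM in WT, overlapping. TOM1L2 and POLR3E themselves had log2 fold changes of 0.00 in total RNA, with edgeR adjusted p of 0.975 and 0.998. Counting all loci opposite a gene, the RN7SL1 loci that lie opposite RPS29 among them, turned the sum the other way: 5228 ± 213 FPM in mut and 5964 ± 426 FPM in WT.

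**Figure D3:**
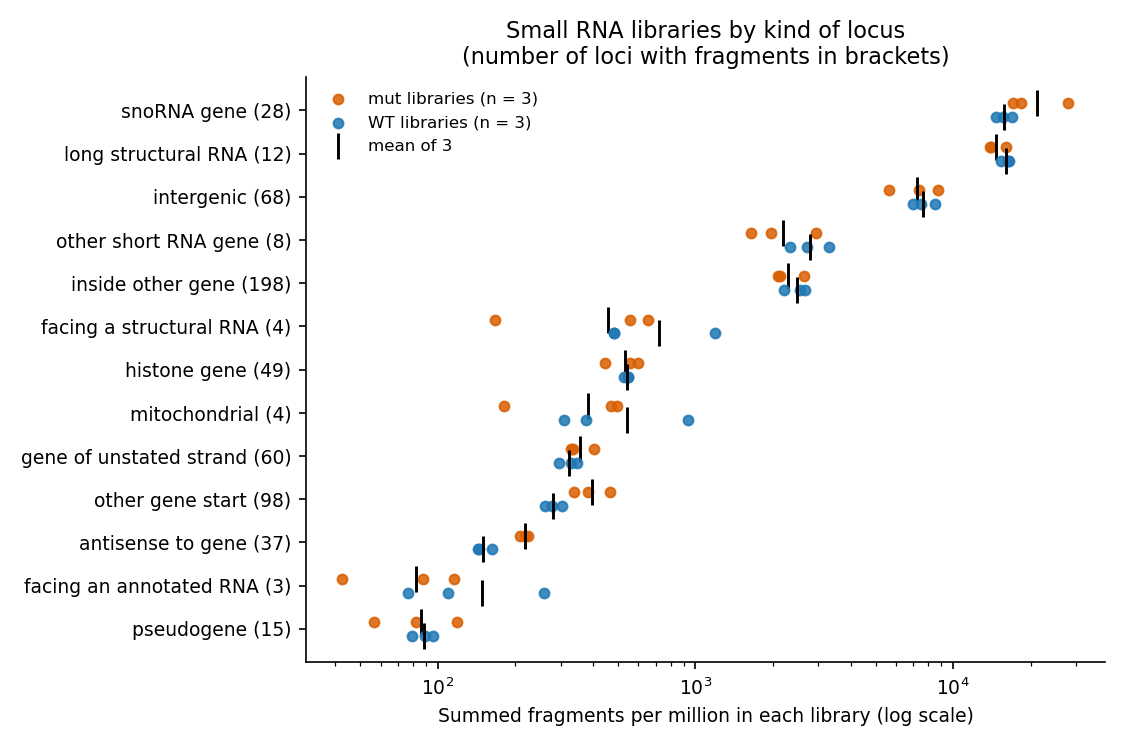
Summed FPM of each kind of locus in each small RNA library (log scale), with 3 mut and 3 WT libraries as points and the mean of 3 as a bar. The mut and WT points do not overlap for snoRNA genes, other gene starts and loci opposite a gene, and they overlap for the other 10 kinds.

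Loci on the strand opposite to abundant structural RNAs varied together between libraries. Facing RN7SK, chr6:52995629-52995957 (minus strand) had 236, 57.4 and 181 FPM in mut and 461, 158 and 213 FPM in WT. As a percent of the larger sense locus of RN7SK that was 14.1, 3.04 and 8.45% in mut and 23.2, 8.47 and 10.96% in WT. The first WT library was highest and the second mut library lowest, and the groups overlapped. The same 2 libraries were highest and lowest at all 6 facing and mitochondrial loci with 100 or more fragments: those facing RN7SK, RN7SL1, RPPH1, RMRP and SNORD3A (U3 snoRNA), and the minus-strand mitochondrial locus over the rRNA genes. The ratio of the first WT to the second mut library was between 4.97 and 8.04 at these 6. The second mut library also had the most fragments in all (1219718) and the first WT library 515938; the part of depth, of library preparation and of RNA from the opposite strand in these values was not tested.

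**Figure D4:**
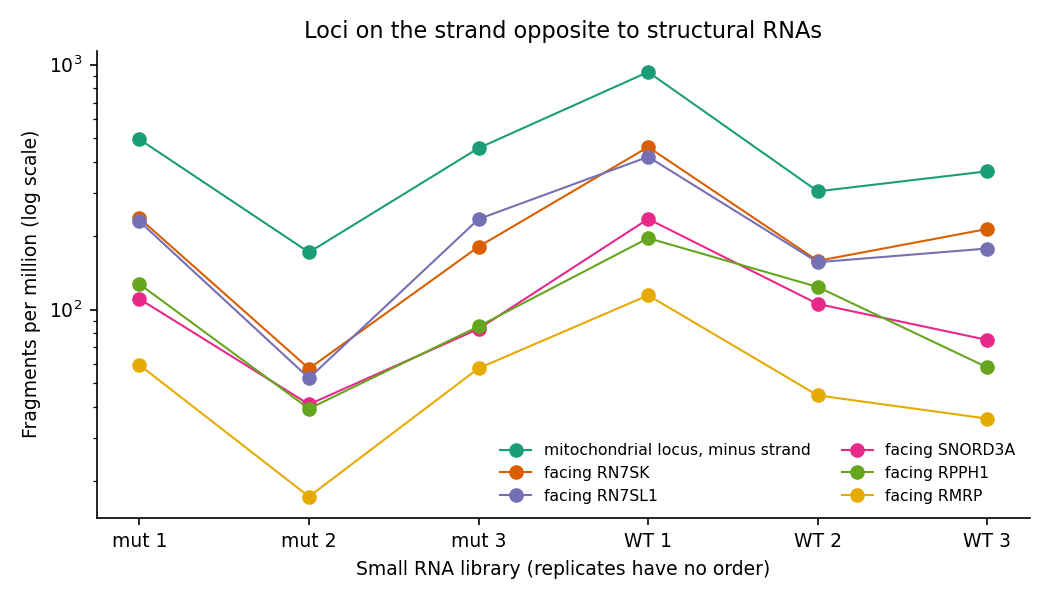
FPM (log scale) of 6 loci on the strand opposite to structural RNAs in each small RNA library, 1 line per locus; lines join libraries only for reading, since replicates have no order. Every line peaks in the first WT library and is lowest in the second mut library.

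Across all loci, 85 of the 584 with fragments passed the filter on low counts and 499 did not. A locus high in 1 variant only can pass through that variant, so the 85 are not a sample of all loci. None of the 85 was called at an adjusted p of 0.05 by edgeR over 1148 features of the whole table, of which 2 (0.174%) were called. Without adjustment 12 of the 85 had p under 0.05, against 83 of 1148 features (7.23%). Of the 12, 10 were higher in mut (4.36% of all features were) and 2 lower (2.87% of all features were). The 10 higher loci included 4 at GAS5, FTL, 3 intergenic loci and the one opposite TOM1L2. The 2 lower ones were the overlapping pair at RN7SL3. DESeq2 called none of the 584 loci and 4 of 2351 features. It gave 20 of the 584 an unadjusted p under 0.05, and the matching share over all features was not counted. The limma fit called 1 locus, FTL, and 3 of 1148 features. Without the third mut library 4 loci were called higher, FTL among them, and 1 lower, the locus in TUB; that fit called 74 of 1198 features (6.18%).

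All 3 mut libraries were above all 3 WT libraries at 9 of the 85 loci (4.18% of all features tested) and below them at 7 (6.71% of all features tested). The median log2 fold change was 0.02 over the 85 and 0.01 over all 1148 features. Of 14 tested snoRNA loci 12 had a log2 fold change above 0, as had 7 of 10 histone loci, and all 5 tested loci facing a structural or annotated RNA were below 0. The last 5 were below 0 under every alternative except without the first WT library, where 3 of the 5 were above 0. For the snoRNA loci the count of 12 was 10 with library totals alone, 7 without the third mut library and 7 with limma. The count of 7 histone loci was 6 with library totals alone. The main fit uses TMM scaling and FPM uses library totals, so signs near 0 can differ between them. Of the 14 snoRNA loci, 9 lay outside GAS5. The lowest values, each -0.76, were in DYM, opposite SNORD3A and opposite RN7SK, and none of them passed.

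**Figure D5:**
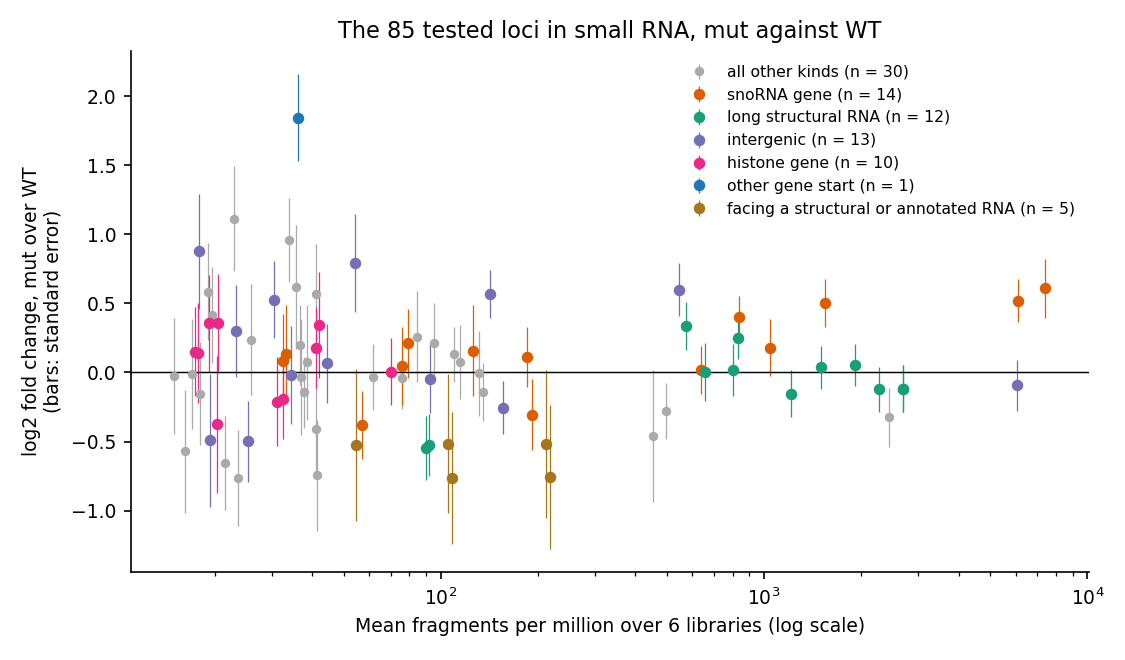
Log2 fold change of mut over WT (y axis, bars are standard errors) against mean FPM over 6 libraries (log scale) for the 85 tested loci, coloured by kind. The FTL start lies highest, at 1.84, and the lowest loci lie at -0.76.

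The genes that hold or face the loci were read independently in total RNA, where 3928 of 14409 genes (27.3%) were called, 14.1% higher and 13.1% lower in mut. Of 376 tested genes that contain a locus with fragments, 100 were higher and 39 lower (37.0%), with a median log2 fold change of 0.08 against 0.01 over all genes. The 376 include the 37 histone genes, of which 31 were higher and 0 lower. Without the first WT library 61 of the genes that contain a locus were called higher. Calls over all genes fell too in that fit, from 2037 to 1327 higher. Of 43 genes faced by a locus, 10 were higher and 3 lower, and 6 were higher without the first WT library. Of 91 tested genes other than histone genes with a locus at their start, 21 were higher and 9 lower (33.0%). HSPA1B was among the higher and was chosen after its values were seen. It had 869 ± 16.6 CPM in mut against 705 ± 44.2 CPM in WT (SD, n = 3; log2 fold change 0.32, SE 0.05, edgeR adjusted p = 7.58e-05).

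A pair of gene lists covers the machinery that acts on such RNAs. Of 32 RNA decay genes, 7 were higher and 7 lower in mut (43.8%, median log2 fold change -0.03), against 27.3% called over all genes tested. The DIS3L2 count was 1087 CPM in mut, against 783 in WT, higher by 0.49 on the log2 scale (edgeR adjusted p = 1.11e-07); it does not separate the introduced from the silenced gene. TUT4 and TUT7, which add uridines to RNA 3′ ends, fell by 0.32 and 0.52 on the log2 scale. ZFC3H1 and MPHOSPH6, cofactors of the nuclear exosome, fell by 0.51 and 0.53. SKIC3, SSB and TENT4B were also lower, by 0.26 to 0.33. Besides DIS3L2, the genes called higher were SKIC8, TENT4A, DIS3L, EXOSC6, MTREX and EXOSC5, by 0.26 to 0.40. Of 29 tested genes for promoter-proximal pausing and termination, 8 were higher and 4 lower (41.4%, median 0.06). Among them CDK9, the kinase of P-TEFb, rose by 0.34, and PCF11, a termination factor, fell by 0.35. HEK293 markers such as VIM and LIN28B were present (mean 1309 and 98.4 CPM), while NEFM and PAX2 were near 0 (0.205 and 0.630 CPM); Of 6 fibroblast markers, DCN, LUM and COL1A2 were at 0 in every library, and the list summed to 4.43 to 6.66 CPM in mut and 2.60 to 3.55 CPM in WT, with no overlap. COL3A1, a collagen gene, had 1.44, 1.54 and 1.14 CPM in mut and 0.312, 0.316 and 0.361 CPM in WT, and COL1A1 and PDGFRA made up the rest. Of 4 liver markers, TTR and SERPINA1 were at 0 in every library, and ALB and APOA1 brought the list to at most 0.34 CPM in mut and 0.36 CPM in WT. Of 6 blood markers 3 were at 0 in every library, CD3E and HBB among them, and the list summed to 0.11 to 0.35 CPM in mut and 0.16 to 0.48 CPM in WT. The part of such cells in the results was not tested.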

How the data were processed

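Small RNA from 3 mut and 3 WT libraries and total RNA from 3 of each were compared. Build hg38 and the tools DESeq2 1.8.2, FastQC 0.11.3, HTSeq 0.6.1, STAR 2.4.0, SAMtools 1.2-10 and CASAVA 1.8.2 are listed, with no roles, per the submitters' processing notes. Per feature the authors deposited a fragment count, FPM (a signal scaled to the library total) and FPKM, and for total RNA raw read counts per gene. How the loci were rebuilt is not given in the sources used here. Small RNA libraries held 493314 to 1219718 fragments and total RNA libraries 8315986 to 12675042 counts in genes. Total RNA reads assigned to no gene (57.8 to 63.2%) were left out.

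Loci were members when their name marks them as reconstructed and they overlap no other kind of feature on the same strand by 1 nt or more. Members, kinds and lists were chosen with earlier results of these data known. Loci were placed on RefSeq GRCh38.p14 genes, with strands and starts taken from its promoter and hairpin tables; a start locus lies within 100 nt of a start. Strands of the 7SL, 7SK, RMRP and RPPH1 genes are textbook background. No genome was used, so exon and intron classes and the planned search for terminator runs, B boxes and similar RNAs were not run. The first 10 transcribed bases are printed with each promoter.

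The quasi-likelihood test of edgeR 4.0.16 (R 4.3.3, TMM on the library totals, filterByExpr) was fitted over all small RNA features and over all genes, with Benjamini-Hochberg adjustment at 0.05, two-sided. Each share was compared between variants by exact permutation of the 6 libraries (20 assignments), adjusted over the 13 kinds or 6 sums. Fits were tested on simulated data. Alternatives were DESeq2 1.42.0, its size factors, library totals alone, no filter or 10 FPM in 3 libraries, limma 3.58.1 on log2(FPKM + 1), reconstructed loci only, the replicate block, each library left out, other members and a start window of 300 nt. Loci named are the 12 most abundant, any called, the 5 largest and 5 lowest log2 fold changes and the 3 most abundant of each position class; other loci named were chosen after their values were seen. A locus that this rule selects and a marker gene are not reported here.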

Additional observations from a re-analysis of the deposited data

How the results depend on the processing

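The count of loci called higher in mut was 0 and became 7 with no filter, 1 with limma, and 0 to 4 with 1 library left out; loci called lower were 0 and became 1 with no filter and 0 to 1 with 1 library left out. Of all features, 44 of 2351 were called with no filter, 3 of 1148 with limma and 74 of 1198 without the third mut library. The calls with 1 library left out all came without the third mut library: FTL, POLR2A, the locus opposite TOM1L2 and chr7:149628137-149628277 higher, the locus in TUB lower. The cause was not tested. The mut minus WT difference was 4643 FPM for loci inside genes and -793 FPM with the GAS5 loci left out, and -736 FPM for loci opposite a gene and -326 FPM with overlapping loci counted once; both alternatives were added after the data were seen. Leaving out 1 library gave -3092 to 5884 FPM for all loci and -1158 to 411 FPM for intergenic loci. In total RNA the genes that contain a locus and were called higher fell from 100 to 61 without the first WT library (61 to 86 over the libraries left out), faced genes called higher from 10 to 6 (6 to 9), and faced genes called lower changed from 3 to 1 with DESeq2 and 2 to 5 over the libraries left out. DESeq2 called 1205 genes higher and 1255 lower of all genes, edgeR 2037 and 1891. Without the first WT library edgeR called 1327 higher and 1453 lower of all genes, and with the replicate block 1854 and 1726. Replicate numbers did not pair the small RNA libraries (correlations of same-numbered deviations 0.2, -0.135 and -0.372). With the replicate block 0 loci were called, the difference over all loci was 2569 FPM (exact permutation p = 1), and 83 genes that contain a locus were called higher and 36 lower. The 499 loci with too few fragments for the filter were not tested at this depth.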

Other observations

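Outside the comparisons above, a locus opposite KLHL2 over LOC124900915 (chr4:165293234-165293338, minus strand), listed by RefSeq as a short RNA gene, held 11, 24 and 16 fragments in mut and 2, 1 and 3 in WT. It did not reach the filter on low counts. With no filter edgeR gave a log2 fold change of 2.55 (SE 0.56, adjusted p = 0.0013). A locus inside HSPD1, the mitochondrial HSP60 chaperone, held 0, 0 and 0 fragments in mut and 7, 1 and 2 in WT. HSPD1 in total RNA was at 785 ± 41.1 in mut against 854 ± 16.6 CPM in WT (SD, n = 3; edgeR adjusted p = 0.15). Both loci were chosen after their values were seen.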
